A study of Mus musculus with 6 samples.

Results

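The small leucine-rich proteoglycans (SLRPs) examined here were 10 genes, *Dcn*, *Bgn*, *Lum*, *Fmod*, *Omd*, *Ogn*, *Aspn*, *Prelp*, *Kera* and *Podn*, taken by gene symbol from an Illumina mouse bead array. All probes that carry these symbols were used, 17 probes of the 45281 on the array and 10 symbols of 31508. No probe was listed under an older name of these genes. The arrays measured cortical bone tubes, the shafts of tibia and femur of C57BL6 mice aged 3 months by the labels (2 to 3 months by the methods), which were freed of marrow and surface cells by flushing and by collagenase and trypsin digestion and were kept overnight in medium with serum. Control tubes (Ctr) then received fresh medium without hormone, and PTH tubes received Pth 1-34 at 250 nM, for 24 hours. There were 3 arrays in each group. RNA was drawn from pooled bones, about 10 to a preparation, with 4 to 5 mice to an experiment. Nothing states that the 3 arrays of a group came from separate mice, so the p-values below measure the spread between these arrays, which may be technical.

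SLRPs are secreted proteins built around a run of leucine-rich repeats, and most carry a chondroitin, dermatan or keratan sulfate chain. They bind collagen fibrils and set fibril width and spacing, and several of them also hold growth factors such as TGF-beta in the matrix. Decorin (*Dcn*), biglycan (*Bgn*) and asporin (*Aspn*) form class I, in which decorin and biglycan carry chondroitin or dermatan sulfate. Lumican (*Lum*), fibromodulin (*Fmod*), osteomodulin (*Omd*, also called osteoadherin), PRELP (*Prelp*) and keratocan (*Kera*) form class II, osteoglycin (*Ogn*) belongs to class III and podocan (*Podn*) to class V. In bone, biglycan and decorin are abundant products of osteoblasts, and osteomodulin and keratocan have been described as products of the bone-forming lineage.

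The deposited signals were background corrected and quantile normalized, and all levels are given as normalized log2 signals. A probe counted as above background on an array when its detection p, a comparison with the negative controls of that array, was under 0.05, and it was tested when this held on at least 3 of the 6 arrays. PTH was compared with control by limma, and p-values were adjusted by the Benjamini-Hochberg method over the 16214 probes tested, and each gene was counted by its brightest tested probe. Median deposited signal was between 111 and 129 on the 6 arrays, and 34.2% to 38.4% of probes exceeded background. Of the osteocyte markers, *Dmp1*, *Mepe*, *Phex*, *Sost* and *Pdpn* (listed as *Gp38*) could be tested and *Fgf23* was above background on no array.

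Of the 10 SLRP genes, 6 were tested, *Dcn*, *Bgn*, *Lum*, *Fmod*, *Ogn* and *Prelp*, and the brightest probe of each was above background on all 6 arrays. At an adjusted p under 0.05 (limma) *Dcn* was the gene called higher, 1 of 6 genes, against 0.685% of all 11979 genes tested that were called higher. None was called lower, against 1.04% of all genes. The other 5 genes did not pass. At an unadjusted p under 0.05, 3 of the 6 were higher and 2 lower (limma). The share of all genes at that threshold was not counted, so nothing about the family is read from this count. The PTH arrays were all above the control arrays for *Dcn*, *Lum* and *Ogn*, 3 of 6 genes against 11.1% of all genes, and all below them for *Fmod* and *Prelp*, 2 of 6 genes against 10.8%. The groups overlapped for *Bgn* alone. Counted by probes, 2 of 10 were called higher, both of *Dcn* (0.617% of all probes tested), and 0 lower (0.993%). The median log2 fold change of the 6 genes was 0.22, beside 0.01 over all genes tested, but it was 0.03 without the detection filter and turned to -0.04 when the tested probes of a gene were averaged. The arrays measure bulk RNA, in which fewer cells of a type and less RNA per cell cannot be told apart.

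**Figure D1:**
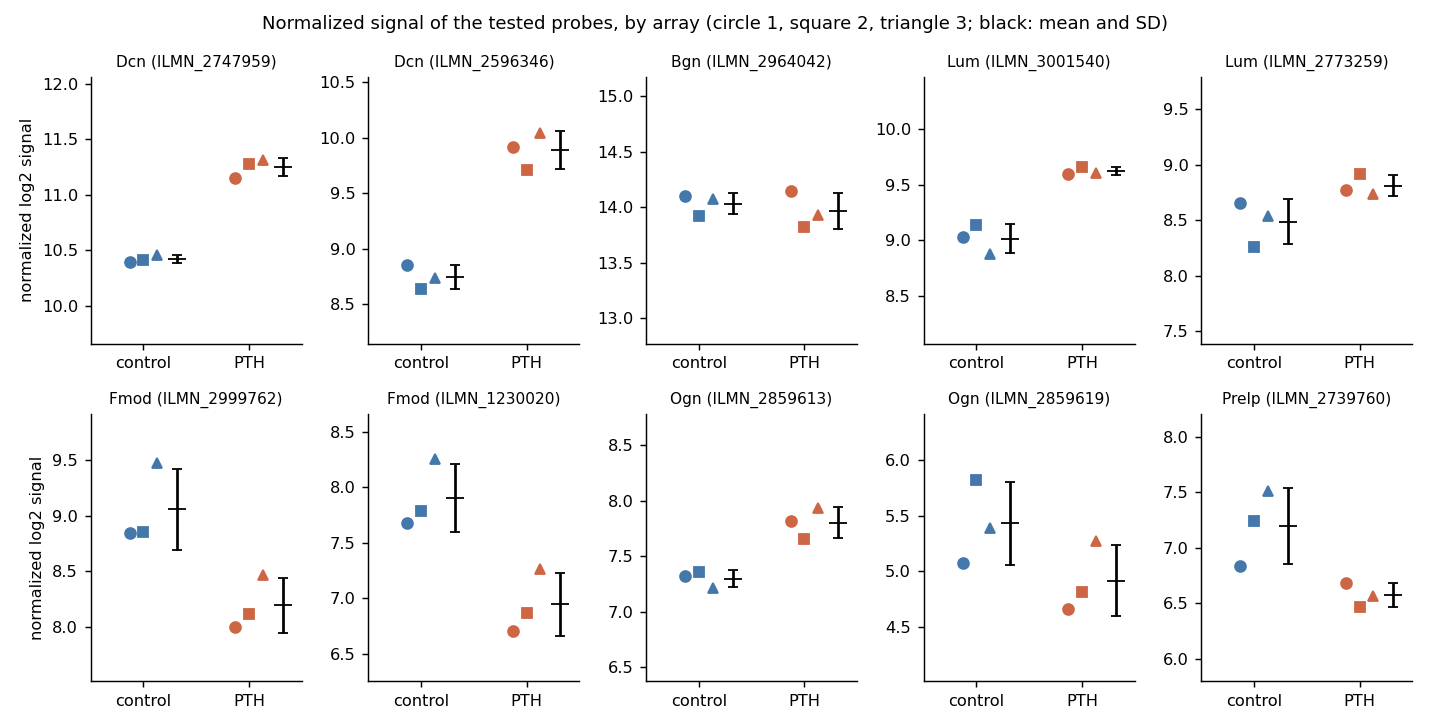
Normalized log2 signal of the 10 SLRP probes tested, for 3 control and 3 PTH arrays, with the mean and SD of each group in black. Each panel spans the same range of log2 units. The PTH arrays lie above the control arrays for both *Dcn* probes, both *Lum* probes and the brighter *Ogn* probe, and below them for both *Fmod* probes and for *Prelp*.

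Among the class I genes, *Dcn* rose and *Bgn* showed no difference that passed the test. The brightest *Dcn* probe (ILMN_2747959) read 10.39, 10.41 and 10.46 in control tubes and 11.15, 11.27 and 11.32 with PTH. All PTH arrays were higher, and the gap between the groups was wider than the spread within either. The log2 fold change was 0.83 (SE 0.12, limma adjusted p = 0.0181), a 1.77-fold rise from 10.42 ± 0.04 (SD, n = 3) to 11.25 ± 0.08 (SD, n = 3). A further probe (ILMN_2596346) read 8.86, 8.64 and 8.74 in control tubes and 9.91, 9.71 and 10.05 with PTH. It rose 2.21-fold, or 1.15 on the log2 scale (SE 0.14, limma adjusted p = 0.00999). The other 2 *Dcn* probes were near background. ILMN_1254458 was above background on no array, and ILMN_2604695 on 2 PTH arrays and no control array. The latter read 4.44, 4.55 and 4.81 against 4.80, 5.76 and 5.20, with overlapping groups, and no change is given for it. In fits that each omitted 1 array the brightest probe kept a log2 fold change between 0.80 and 0.87 but passed in 0 of 6 fits (limma adjusted p from 0.0516 to 0.0923), whichever array was left out. The dimmer tested probe passed in 6 of 6 (0.0242 to 0.0474).

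*Bgn* gave a deposited signal of 14623, 15588 and 17546 for the controls and 15402, 14231 and 21147 with PTH, below the highest signal of any probe on these arrays (between 48881 and 54560). After normalization the levels were 14.10, 13.92 and 14.07 in control tubes and 14.14, 13.82 and 13.92 with PTH, and the groups overlapped. The log2 fold change was -0.07 with a 95% interval from -0.38 to 0.25 (limma adjusted p = 0.871), an interval below that of the brightest *Dcn* probe (0.56 to 1.10), which does not show that *Bgn* was unaltered. *Aspn* was above background on none of the 6 arrays, with detection p-values from 0.0833 to 0.995, and no change is given for it.

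Among the class II genes, *Lum* had higher levels with PTH, and *Fmod* and *Prelp* lower levels, and none of the 3 passed. The brighter *Lum* probe (ILMN_3001540) read 9.03, 9.14 and 8.88 in control tubes and 9.60, 9.66 and 9.61 with PTH. The PTH arrays lay within a narrow range above all control arrays. Its log2 fold change was 0.61 (SE 0.12, limma adjusted p = 0.0643). The dimmer probe (ILMN_2773259) read 8.66, 8.26 and 8.54 against 8.77, 8.91 and 8.74, which is 0.32 higher on the log2 scale (SE 0.14, limma adjusted p = 0.356). Its direction was the same, and the groups were closer together.

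*Fmod* read 8.84, 8.85 and 9.48 in control tubes and 8.0, 8.11 and 8.47 with PTH by its brighter probe (ILMN_2999762). In each group the array numbered 3 was the highest. The log2 fold change was -0.87 (SE 0.21, limma adjusted p = 0.11). The dimmer probe (ILMN_1230020) read 7.68, 7.79 and 8.25 against 6.70, 6.87 and 7.26, and its log2 fold change was -0.96 (SE 0.21, limma adjusted p = 0.0742). The probes thus had the same order of arrays in both groups. Without both arrays numbered 3, a setting added after the data were seen, the log2 fold change of the brighter probe was -0.80 (limma adjusted p = 0.138).

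*Prelp*, whose protein has a basic end that binds heparan sulfate, was measured by 1 probe, which read 6.84, 7.24 and 7.51 in control tubes and 6.68, 6.47 and 6.57 with PTH. All PTH arrays were lower, although the gap between the groups was small beside the spread of the controls. The log2 fold change was -0.62 (SE 0.18, limma adjusted p = 0.172). Fibromodulin and PRELP are also abundant in cartilage, and by the labels the tubes hold no growth plate. Of 7 cartilage markers 4 were tested and 1, aggrecan (*Acan*, listed as *Agc1*), was called lower, against 1.04% of all genes tested. Its probe exceeded background on 3 control arrays and no PTH array, so it entered the test through the controls alone. The summed normalized signal of all 7 markers, also those at background, was 417 to 441 in control tubes and 305 to 336 with PTH. *Matn1* and *Matn3* were above background on no array. The part of cartilage in the levels of *Fmod* and *Prelp* was not tested.

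The class II genes *Omd* and *Kera* could not be tested. The *Omd* probe was above background on 1 control array and 1 PTH array, in each case the array numbered 3. It read 5.06, 4.94 and 5.37 in control tubes and 4.61, 5.00 and 5.10 with PTH, and the groups overlapped. *Kera* was above background on no array, with detection p-values from 0.503 to 0.944, so neither a level nor a change can be given for it from these tubes. The class V gene *Podn* was likewise above background on no array, its lowest detection p being 0.109.

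*Ogn*, the class III gene, had 3 probes that did not move together. The brightest (ILMN_2859613) read 7.32, 7.36 and 7.21 in control tubes and 7.82, 7.66 and 7.94 with PTH, with all PTH arrays higher. Its log2 fold change was 0.50 (SE 0.13, limma adjusted p = 0.122). A probe close to background (ILMN_2859619, above it on 2 control arrays and 1 PTH array) read 5.08, 5.83 and 5.39 against 4.66, 4.82 and 5.27, opposite in sign at -0.52 (SE 0.23, limma adjusted p = 0.361). The last probe (ILMN_2740622) was above background on 1 control array and was not tested. When the tested probes of a gene were averaged, the change of *Ogn* was -0.0056 (limma adjusted p = 0.991), so its direction rests on the choice of probe.

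**Figure D2:**
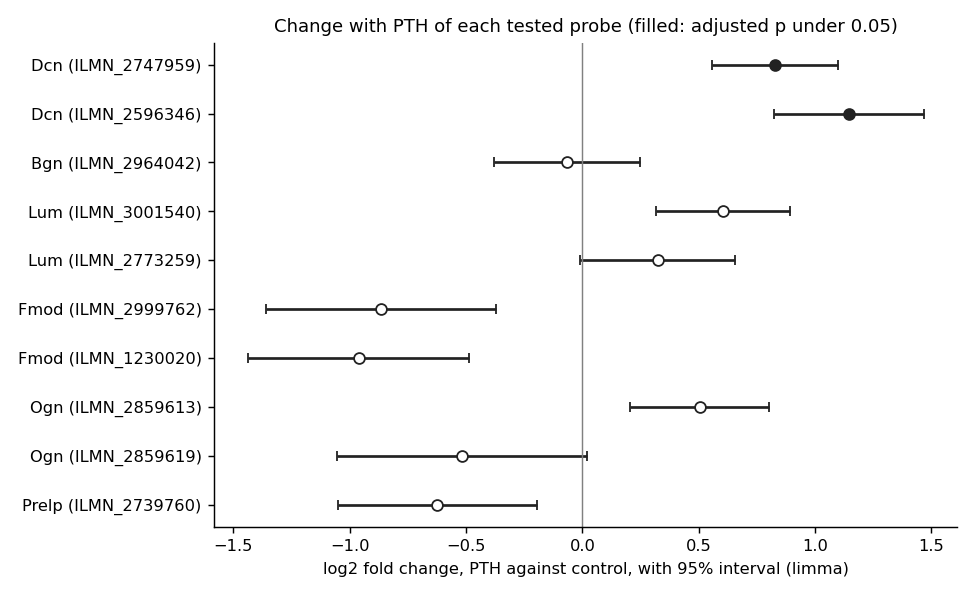
Log2 fold change of PTH against control for each tested SLRP probe, with the 95% interval of the limma fit and filled points for an adjusted p under 0.05. The 2 *Dcn* probes are the only filled points, the *Bgn* interval spans 0, and the 2 tested *Ogn* probes lie on opposite sides of 0.

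Pairs of these proteins share binding partners and were set against each other within each array, a comparison that does not depend on the overall brightness of an array. The 2 differences were chosen after the values were seen. Lumican and fibromodulin bind the same region of type I collagen. The log2 signal of *Lum* minus that of *Fmod* was 0.19, 0.29 and -0.60 in control tubes and 1.60, 1.55 and 1.14 with PTH. The PTH arrays were all higher, and the ratio of the signals was 2.77-fold higher with PTH (log2 change 1.47). Decorin and biglycan are the class I members that carry chondroitin or dermatan sulfate. The difference *Dcn* minus *Bgn* was -3.71, -3.51 and -3.61 in control tubes and -2.99, -2.55 and -2.61 with PTH, a 1.86-fold change of the ratio (log2 change 0.89). Each gave p = 0.1 by a two-sided exact permutation test over the arrays, the smallest p that 3 against 3 allows, and 0.1 after adjustment over the 2 comparisons. With 3 arrays against 3 this test cannot reach 0.05, so both differences stand as descriptions.

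**Figure D3:**
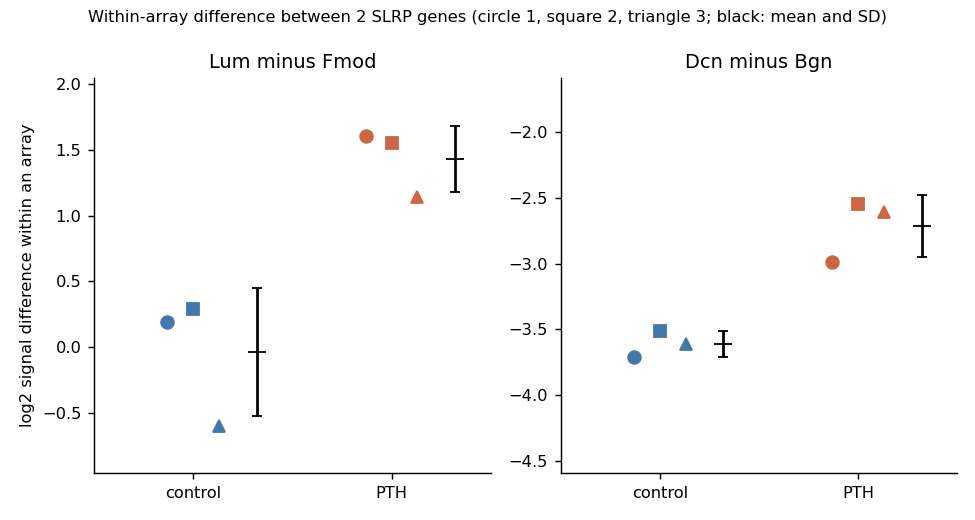
Difference in normalized log2 signal between 2 SLRP genes on the same array, for 3 control and 3 PTH arrays, with mean and SD in black. For *Lum* minus *Fmod* the PTH arrays lie between 1.14 and 1.60 and the control arrays between -0.60 and 0.29, and for *Dcn* minus *Bgn* the groups are likewise apart.

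Several of these genes lie next to each other in the genome. In RefSeq (GRCm38.p6), *Dcn*, *Lum* and *Kera* follow each other on chromosome 10, *Prelp* and *Fmod* are neighbours on chromosome 1, and *Aspn*, *Omd* and *Ogn* follow each other on chromosome 13. The tested genes of the chromosome 10 group, *Dcn* and *Lum*, had positive log2 fold changes and those of the chromosome 1 pair negative ones. Upstream sequence was taken from RefSeq for 8 of the 10 genes (9 windows of 250 bases before a transcript start), not for *Dcn* and *Lum*. The windows of the 4 tested genes in that set are printed 5′ to 3′. Their log2 fold changes were negative for *Fmod* and *Prelp* and positive for the brightest *Ogn* probe. That of *Bgn* was -0.07 with overlapping groups. None of the 4 genes passed, and the direction of *Ogn* rests on the choice of probe, so the windows are not a contrast of established directions. Capitals mark matches, on either strand, to TATAAA (the TATA box), GGGCGG (the GC box), ACCACA (the core bound by RUNX factors) and TGACG (the core of the cAMP response element, whose full palindrome TGACGTCA was searched too and contains it). The *Fmod* window is chr1:134037004-134037253 on the + strand, the *Prelp* window chr1:133921402-133921651 on the - strand, the *Ogn* window chr13:49607765-49608014 on the + strand and the *Bgn* window chrX:73483351-73483600 on the + strand.
Fmod: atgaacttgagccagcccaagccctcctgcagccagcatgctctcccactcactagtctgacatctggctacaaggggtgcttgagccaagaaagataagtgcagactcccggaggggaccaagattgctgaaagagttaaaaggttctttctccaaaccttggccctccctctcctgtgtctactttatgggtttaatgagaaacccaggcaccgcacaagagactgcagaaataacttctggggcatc
Prelp: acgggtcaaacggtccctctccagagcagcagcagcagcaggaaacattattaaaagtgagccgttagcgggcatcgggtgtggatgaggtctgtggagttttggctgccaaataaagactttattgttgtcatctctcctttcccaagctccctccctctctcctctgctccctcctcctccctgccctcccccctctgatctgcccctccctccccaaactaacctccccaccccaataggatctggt
Ogn: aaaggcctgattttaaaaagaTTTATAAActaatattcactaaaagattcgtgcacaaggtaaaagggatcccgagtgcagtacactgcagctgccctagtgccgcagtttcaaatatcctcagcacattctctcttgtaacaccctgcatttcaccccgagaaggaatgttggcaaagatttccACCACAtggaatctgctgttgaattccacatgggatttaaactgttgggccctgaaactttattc
Bgn: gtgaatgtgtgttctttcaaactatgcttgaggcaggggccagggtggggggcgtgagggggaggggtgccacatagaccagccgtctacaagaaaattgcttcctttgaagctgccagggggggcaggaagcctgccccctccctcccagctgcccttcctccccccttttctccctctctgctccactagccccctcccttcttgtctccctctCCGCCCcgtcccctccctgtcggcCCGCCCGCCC
The *Fmod* and *Prelp* windows held none of these letters. The *Ogn* window held a pair of overlapping TATAAA matches, on opposite strands, and 1 ACCACA match 65 bases before the start, and the *Bgn* window held 3 GGGCGG matches, of which 2 overlap. TGACG was in 0 of the 9 SLRP windows and in 17.8% of all 32851 windows of this length, against 12.4% for TATAAA, 32.7% for GGGCGG and 14% for ACCACA, while TGACGTCA was in 1.55% of all windows. A match is a description of letters only, and its absence says nothing about a factor.

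Genes that act on SLRPs or with them were read from lists of related genes, each set against the shares of all genes called, 0.685% higher and 1.04% lower. Of the enzymes that build chondroitin and dermatan sulfate chains, 15 of 22 were tested, 1 was called higher and 0 lower (median log2 fold change -0.18). The called gene was *Csgalnact1*, listed as 4732435N03Rik, the transferase that adds the initiating N-acetylgalactosamine of a chondroitin chain. It read 5.51, 5.97 and 5.64 in control tubes and 7.25, 7.27 and 7.05 with PTH. These values did not overlap, and the gene rose 2.79-fold (log2 fold change 1.48, SE 0.16, limma adjusted p = 0.00578). It passed in 6 of 6 fits with 1 array left out but not without both arrays numbered 3 (limma adjusted p = 0.102). With a detection p under 0.01 required on all 6 arrays it was not tested, since its detection p on Ctr replicate 1 was 0.0107. Its log2 fold change was smaller, though still past the threshold, with quantile normalization alone (0.71) and with an offset of 50 (1.06). Of the keratan sulfate enzymes, 5 of 9 were tested and 0 were called (limma), and the largest difference was that of *Fut8*, 0.56 (limma adjusted p = 0.312).

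Among the collagens that SLRPs bind, 10 of 12 were tested, 1 was called higher and 0 lower, with a median log2 fold change of 0.09. *Col3a1*, the chain of type III collagen, read 9.68, 9.53 and 9.73 in control tubes and 10.43, 10.54 and 10.74 with PTH. It rose by 0.92 on the log2 scale (SE 0.14, limma adjusted p = 0.0211), close to the change of *Dcn* and without overlap. *Col1a1*, the main chain of bone collagen, had a log2 fold change of -0.54 and did not pass (limma adjusted p = 0.0798). A further *Col3a1* probe changed by 0.46 and did not pass (limma adjusted p = 0.119).

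Of the proteases that cleave SLRPs, 7 of 10 were tested and 2 were called higher and 0 lower. *Adamts4*, an aggrecanase that also cuts biglycan, decorin and fibromodulin, read 7.20, 7.27 and 7.11 against 8.06, 8.16 and 8.30 and rose by 0.98 (SE 0.13, limma adjusted p = 0.0123). *Mmp9*, a gelatinase made in quantity by osteoclasts, read 11.74, 11.88 and 11.96 against 12.47, 12.56 and 12.75 and rose by 0.73 (SE 0.13, limma adjusted p = 0.0433). In both cases all PTH arrays were higher. Omitting single arrays, *Adamts4* passed in 4 of 6 fits, failing without Ctr replicate 1 (limma adjusted p = 0.0657) and without PTH replicate 2 (0.0575). *Col3a1* (0.0511 to 0.0923) and *Mmp9* (0.0851 to 0.157) passed in 0 of 6, whichever array was left out. The other 5 tested, *Mmp2*, *Mmp13*, *Mmp14*, *Bmp1* and *Adamts5*, had log2 fold changes between -0.21 and 0.42 and did not pass.

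Of the growth factors and receptors that SLRPs bind, 12 of 14 were tested and 0 were called (limma). The largest difference was that of *Bmp2*, -1.29 (SE 0.31, limma adjusted p = 0.0984), which read 6.74, 6.89 and 6.20 against 5.93, 4.74 and 5.28 and exceeded background on 3 control arrays but 2 with PTH. Of 8 other SLRP genes, 3 were tested and 0 were called. These were *Podnl1* (0.21), *Tsku* (0.07) and *Chad* (-0.21, close to background), while *Ecm2*, *Epyc*, *Optc*, *Nyx* and *Chadl* were above background on no array.

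**Figure D4:**
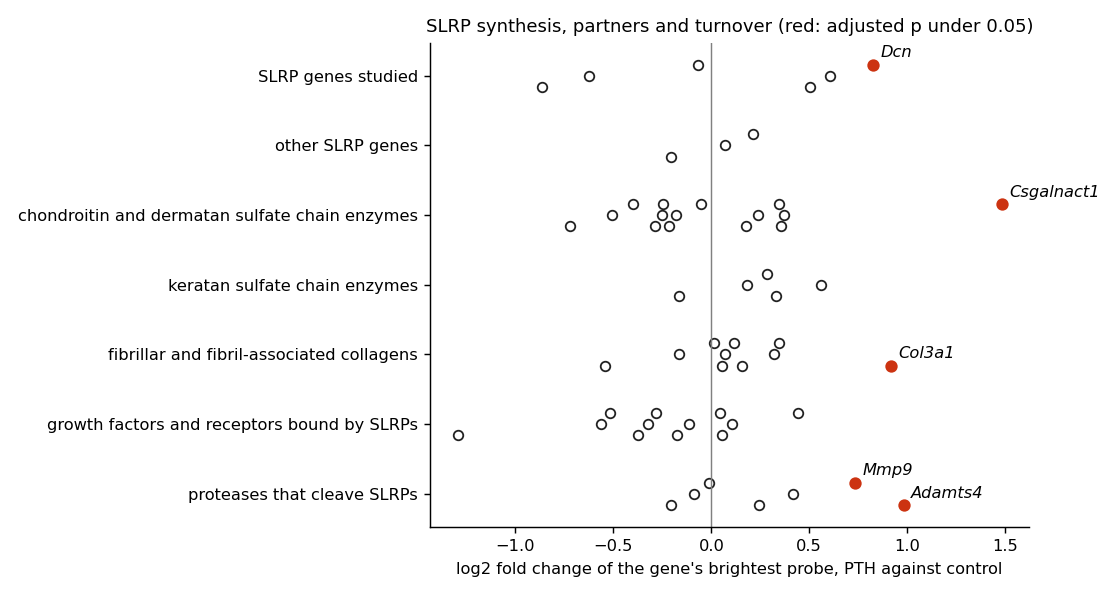
Log2 fold change of the brightest tested probe of each gene in the SLRP family, its synthesis enzymes, its collagen and growth factor partners and the proteases that cleave it. Red points passed an adjusted p under 0.05, and all 5 of them, *Dcn*, *Csgalnact1*, *Col3a1*, *Adamts4* and *Mmp9*, were higher with PTH.

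Markers of the cells that the tubes could hold were read in the same fit, which called 0.685% of all genes tested higher and 1.04% lower. Tendon and periosteal fibroblasts are rich in decorin and lumican. Of 6 marker genes for them 2 were tested, *Scx* (log2 fold change -0.13) and *Mkx* (0.12), and 0 were called. The summed normalized signal was 566 to 604 in control tubes and 525 to 551 with PTH, and *Thbs4*, *Dpt* and *Pi16* were above background on no array. Here and below, such a sum counts every gene of a list, also those at background, so it is not a measure of cell content. Marrow stroma markers (4 of 5 tested, 0 called) summed to 2147 to 2625 against 1974 to 2238, with *Lepr* above background on no array. Within that list *Pdgfra* went the other way, with all PTH arrays above the controls (log2 fold change 0.59, limma adjusted p = 0.188). Osteoclast markers rose in 2 of 4 tested genes, *Acp5* and *Oscar*, and summed to 8191 to 9442 in control tubes and 10513 to 13826 with PTH, with *Calcr*, *Ocstamp* and *Atp6v0d2* above background on no array. Neutrophil markers fell in 3 of 6 tested (49673 to 50335 against 32539 to 36569), red cell markers in 2 of 2 tested, osteoblast markers in 2 of 6 (27031 to 27644 against 15488 to 16404, *Runx2* on no array) and osteocyte markers in 1 of 5 (7427 to 8781 against 5999 to 7181). The osteocyte marker *Pdpn* went against its list's sum, with all PTH arrays above the controls (log2 fold change 0.70, limma adjusted p = 0.056). Of muscle markers 1 of 6 was tested (167 to 175 against 164 to 171, with *Acta1*, *Ckm*, *Tnnt3* and *Myh4* above background on no array), of fat markers 2 of 5 (139 to 155 against 153 to 191, *Fabp4* and *Plin1* on no array) and of endothelial markers 5 of 5 (1254 to 1422 against 1266 to 1308), and 0 of these were called. What part these cells had in the SLRP levels was not tested.

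In the reported setting *Fmod* had the largest log2 fold change in size among the brightest probes of the 6 genes (-0.87 against 0.83 for *Dcn*). *Dcn* was ahead with quantile normalization alone, an offset of 50, median scaling or averaged probes, and without Ctr replicate 3, PTH replicate 1 or both arrays numbered 3. The genes whose levels followed *Fmod* most closely over the 6 arrays were *Hmox1* (r = 0.996), *Faf1* (r = 0.993) and *S100a9* (r = 0.991), a description that rests on 6 arrays and includes the difference between the groups. None of the 3 was called.

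**Figure D5:**
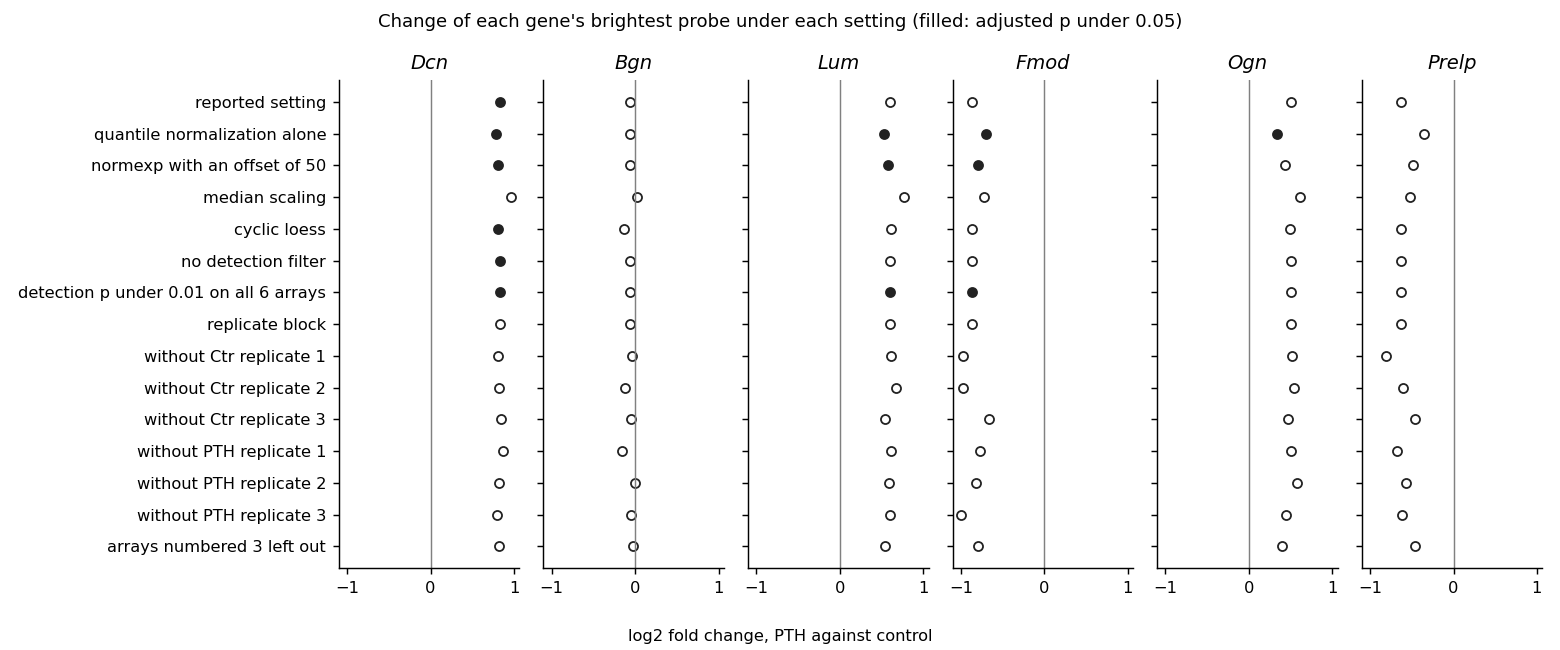
Log2 fold change of the brightest probe of each tested SLRP gene under the reported setting and 14 others, filled where the adjusted p was under 0.05. The sign is constant for *Dcn*, *Lum*, *Fmod*, *Ogn* and *Prelp* in these settings, and *Dcn* is filled in 6 of the 15, *Lum* and *Fmod* in 3.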

How the data were processed

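RNA of 3 control and 3 PTH preparations was hybridized to Illumina mouse arrays, and GenomeStudio is named in the submitters' processing notes (version not given in the sources used here). The authors deposited linear signal intensity per probe and array, neither normalized nor background subtracted. A detection p-value beside each intensity was deposited too. All columns of per-sample values were used. Signals were corrected by normexp through the detection p-values, given an offset of 16, quantile normalized and taken to log2 (neqc, limma 3.58.1, R 4.3.3). Probes above background (detection p under 0.05) on at least 3 of 6 arrays were tested by lmFit and eBayes without a block, and p-values were adjusted by the Benjamini-Hochberg method. Precision is limited by the number of arrays. The procedure was run on simulated data with independent noise and known changes larger than that of any SLRP gene by its brightest probe. That run does not cover smaller changes or noise shared between probes. The SLRP genes, lists and tests were chosen with earlier results of these data known. Named were all SLRP probes, called genes of each list or else the largest change, and the 3 genes most like the SLRP gene that changed most. Alternatives covered background correction, normalization, detection filter, probe rule, replicate block and single arrays. Leaving out the arrays numbered 3 was added after seeing the data. The summed signal of the red cell markers is not reported here.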

Additional observations from a re-analysis of the deposited data

How the results depend on the processing

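The count of SLRP genes called higher, 1 (*Dcn*), became 3 with quantile normalization alone (*Dcn*, *Lum* and *Ogn*), 2 with an offset of 50 and 2 with a detection p under 0.01 on all 6 arrays (*Dcn* and *Lum* each time), and 0 under median scaling, with the replicate block, without the 2 arrays numbered 3, and in each of the 6 fits without 1 array (0 to 0). The count called lower, 0, became 1 (*Fmod*) with quantile normalization alone, an offset of 50 and detection on all 6 arrays. With the strict filter fewer probes were tested, and the cause of the other shifts was not tested. The deviations of same-numbered arrays correlated at 0.07, 0.06 and 0.27, and the reported fit did not pair the arrays. These correlations cannot show that the arrays were unpaired. By number, the share of probes above background was 34.8%, 36.3% and 38.4% for control and 34.2%, 36.1% and 38.4% for PTH. Whether same-numbered arrays shared a preparation or a run is not stated. With the replicate block *Dcn* kept a log2 fold change of 0.83 (limma adjusted p = 0.0663), and *Col3a1*, *Adamts4* and *Mmp9* were lost as well. Without the arrays numbered 3, *Col3a1* (limma adjusted p = 0.127), *Adamts4* (0.115) and *Mmp9* (0.163) did not pass either. *Mmp9* was also lost under median scaling (limma adjusted p = 0.134) and without the detection filter (0.0602). Under median scaling the median log2 fold change of all genes was 0.12, and the log2 fold changes relative to it were 0.85 for *Dcn*, 0.65 for *Lum*, -0.84 for *Fmod* and -0.64 for *Prelp*. The dimmer tested *Dcn* probe passed in 7 of 8 such settings, all but that without the arrays numbered 3 (limma adjusted p = 0.114). *Bgn* turned to 0.0246 under median scaling, its values omitting single arrays were -0.16 to 0.0018 (the latter without PTH replicate 2), and *Ogn* turned to -0.0056 when its probes were averaged. Over all genes, 82 were called higher and 125 lower. The lowest counts were 6 and 15, without the arrays numbered 3, and the highest 274 and 315, with quantile normalization alone, while median scaling gave 63 and 41. *Aspn*, *Kera*, *Podn* and *Omd* lie at or near background, where no change can be read.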
